A study of Homo sapiens with 12 samples.

Results

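The baseline state of 2 human uveal melanoma cell lines, 92.1 and MP38, was compared in the DMSO samples of the study, which are the controls of an experiment with VE-822, an inhibitor of the kinase ATR. Members were chosen by label: the 3 samples of 92.1 and the 3 samples of MP38 that had been kept in DMSO, the solvent of the drug, for 72 hours, 6 of 12 samples in all. The cells were therefore solvent-treated rather than untouched. Both groups are established lines labelled as uveal melanoma, so each group is 1 line and a difference between them is one between 2 cell lines, not between tumour classes. The labels do not say whether the 3 samples of a line were separate cultures, so the p-values rest on the variation among 3 samples of a line, and that variation may be only technical. The counts of each line came in a table of its own, and everything that differed between the making of the 2 tables cannot be told apart from the line.

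Uveal melanoma arises from the melanocytes of the eye, the pigment cells of the iris, ciliary body and choroid. It is usually started by mutations that lock the G protein subunits GNAQ or GNA11 in their active form and drive signalling through phospholipase C and protein kinase C. Tumours then part by the loss of the deubiquitinase BAP1, or by changes of SF3B1 or EIF1AX, and by recurrent gains and losses of chromosomes 3, 6 and 8. ATR is the kinase that senses single-stranded DNA at stalled replication forks and acts through CHEK1 to hold back the cell cycle.

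Poly(A) RNA had been sequenced in all samples. Total counts were 112374503 to 123705501 in 92.1 and 61045071 to 63638976 in MP38, so 92.1 was measured at close to double the depth. Even so, 32961 to 33234 features had a count in the MP38 samples and 31684 to 32494 in those of 92.1. The first principal component held 97.6% of the variance and parted the lines, and the second, with 1.43%, set DMSO sample 3 of 92.1 apart. That sample differed from samples 1 and 2 of its line by a chi-square per gene of 93.8 and 94.5, against 2.39 to 6.99 for the other pairs within a line. Results that rest on it are given with and without it. Levels are read counts scaled to library size (CPM) with TMM, a correction for the makeup of each library, or FPKM, which also divides by gene length, where genes are set side by side. The log2 ratio is 92.1 over MP38 with its standard error (SE), n = 3 samples per line, and a gene was called at an adjusted p under 0.05 in edgeR's quasi-likelihood test.

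The lines differed at most of the genes measured. Of 22856 genes tested, 8886 (38.9%) were called higher in 92.1 and 9368 (41.0%) higher in MP38, 79.9% in all. At least a doubling was called for 4983 genes (21.8%) in the direction of 92.1 and for 6215 (27.2%) in the direction of MP38. The median log2 ratio of all tested genes was -0.03, with quartiles at -1.15 and 0.85. With 79.9% of genes called, a call by itself says little, so gene lists are described by their direction and their median against these values. The CPM of the lines did not overlap for 82.4% of tested genes. Scaling by library total alone gave 7553 genes higher in 92.1 and 10721 higher in MP38 and moved the median of all genes to -0.24, and the direction of a log2 ratio or list median smaller than that shift depends on the scaling. Where a line has only a few counts of a gene, the fitted log2 ratio depends on how such counts are treated, and none is given where a line has at most 3 counts in every sample.

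**Figure D1:**
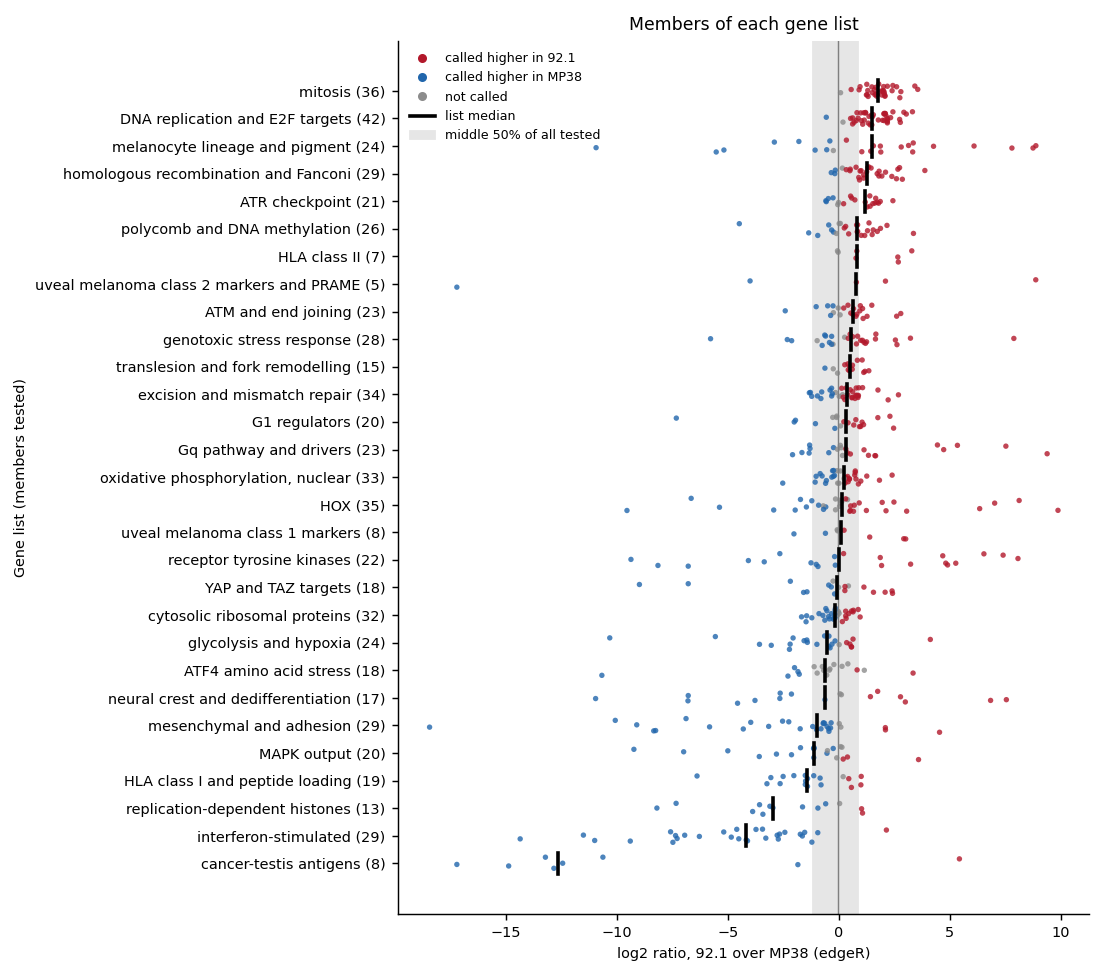
Log2 ratio of 92.1 over MP38 for every tested member of each gene list. Each point is a gene, coloured by its call, the black bar is the list's median, and the grey band spans the middle 50% of all tested genes. Mitosis and replication genes lie to the right with medians of 1.76 and 1.49, and interferon-stimulated genes to the left with a median of -4.17.

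Both lines carried the transcripts of pigment cells, but with the pigment enzymes in different proportions. MITF, the master regulator of the melanocyte lineage, measured 489, 473 and 468 CPM in 92.1 and 158, 155 and 175 CPM in MP38 (log2 ratio 1.55 ± 0.06 SE, adjusted p = 2.18e-08). The 3 samples of 92.1 lay above all of MP38. SOX10, the neural crest factor that acts with MITF, went the other way at 444, 451 and 337 CPM in 92.1 and 589, 606 and 607 CPM in MP38 (log2 ratio -0.55 ± 0.10 SE, adjusted p = 0.000793), with 92.1 sample 3 lowest of all. PMEL, the protein of the fibrils on which pigment is laid down, was abundant in both at 6655, 6757 and 6863 CPM in 92.1 and 1872, 1875 and 1819 CPM in MP38 (log2 ratio 1.86 ± 0.04 SE, adjusted p = 6.4e-10). It ranked 14th by FPKM among protein-coding genes in 92.1 and 45th in MP38. MLANA, the melanosome antigen MART-1, measured 386, 378 and 417 CPM in 92.1 and 142, 137 and 158 CPM in MP38 (log2 ratio 1.43 ± 0.07 SE, adjusted p = 9.06e-08), and the groups did not overlap.

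The enzymes that make melanin were divided between the lines. TYRP1, which acts late in the synthesis of brown and black pigment, measured 11769, 11701 and 11623 CPM in 92.1 and 25.5, 26.7 and 29.9 CPM in MP38 (log2 ratio 8.74 ± 0.08 SE, adjusted p = 1.86e-11). It alone took 1.09% of all counts in each sample of 92.1 and 0.00273% to 0.0032% in MP38. TYR, tyrosinase, the enzyme of the first and limiting step, was higher in MP38 at 112, 114 and 109.9 CPM in 92.1 against 817, 793 and 903 CPM (log2 ratio -2.91 ± 0.06 SE, adjusted p = 6.63e-10). DCT, the enzyme between them, measured 13.4, 13 and 12.8 CPM in 92.1 and 579, 582 and 645 CPM in MP38 (log2 ratio -5.53 ± 0.07 SE, adjusted p = 5.51e-11). On the per-length scale TYRP1, TYR and DCT averaged 2913, 40.1 and 1.61 FPKM in 92.1 and 7.86, 347 and 85.6 FPKM in MP38. The order of the 3 enzymes was thus TYRP1, TYR, DCT in 92.1 and TYR, DCT, TYRP1 in MP38.

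The promoters of these 3 enzymes are shown because all of them hold the M-box core, CATGTG, the hexamer read by MITF, while their levels differed in opposite directions. Capitals mark CATGTG on either strand (CACATG on the strand printed). Each run is 300 bases, 250 before to 50 after the RefSeq start (build GRCh38.p14): chr9:12693135-12693434, plus strand for TYRP1, chr11:89177625-89177924, plus strand for TYR and chr13:94479633-94479932, minus strand for DCT.
TYRP1: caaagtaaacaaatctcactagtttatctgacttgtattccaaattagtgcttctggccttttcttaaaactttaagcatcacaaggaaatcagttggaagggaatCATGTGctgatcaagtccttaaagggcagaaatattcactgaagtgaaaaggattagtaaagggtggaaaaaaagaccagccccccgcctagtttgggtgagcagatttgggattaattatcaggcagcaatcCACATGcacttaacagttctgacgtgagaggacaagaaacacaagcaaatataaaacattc
TYR: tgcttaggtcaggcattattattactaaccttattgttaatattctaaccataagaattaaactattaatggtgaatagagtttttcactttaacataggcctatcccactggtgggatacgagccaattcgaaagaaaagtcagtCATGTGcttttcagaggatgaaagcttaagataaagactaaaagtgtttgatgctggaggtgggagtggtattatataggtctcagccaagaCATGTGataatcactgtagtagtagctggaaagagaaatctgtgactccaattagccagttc
DCT: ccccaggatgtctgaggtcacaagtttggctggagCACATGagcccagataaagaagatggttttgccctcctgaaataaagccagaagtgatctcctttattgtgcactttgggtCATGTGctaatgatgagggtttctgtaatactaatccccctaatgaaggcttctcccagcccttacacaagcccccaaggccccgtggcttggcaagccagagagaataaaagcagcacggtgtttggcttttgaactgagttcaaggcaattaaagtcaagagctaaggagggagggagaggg
TYRP1 holds the hexamer 144 and 11 bases before its start, TYR 104 and 12 bases before it, and DCT 215 and 134 bases before it. Of the 19 tested members of the melanocyte list with a promoter in the table, 11 (57.9%) held it, against 11.1% of all 35116 promoters. Members are counted by gene, some with several promoters, and the share of all by promoter, so the shares are not strictly alike. The list was drawn up to hold genes of the lineage that MITF governs, so a higher share may follow from its making. CATGTG is 1 spelling of the wider E-box and a match is only a description.

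Of the melanocyte lineage and pigment list, 15 of 24 tested were higher in 92.1, 8 were higher in MP38 and 1 was not called, with a median log2 ratio of 1.49. EDNRB, the endothelin receptor that melanoblasts need, measured 200.4, 196 and 208 CPM in 92.1 and 19.4, 20.5 and 20.5 CPM in MP38 (log2 ratio 3.32 ± 0.06 SE, adjusted p = 1.97e-10). PAX3, a neural crest factor upstream of MITF, measured 264, 271 and 288 CPM in 92.1 and 30.9, 32.5 and 30.2 CPM in MP38 (log2 ratio 3.13 ± 0.06 SE, adjusted p = 3.58e-10). Both were separated between the lines by several fold. BCAN, the proteoglycan brevican, was high in 92.1 and near 1 CPM in MP38, with 252, 249 and 226 CPM in 92.1 and 0.879, 1.17 and 1.23 CPM in MP38 (log2 ratio 7.79 ± 0.12 SE, adjusted p = 1.38e-10). S100B, a calcium-binding protein of melanocytes and glia that is used as a melanoma marker, was the reverse at 0.0766, 0.063 and 0.0779 CPM in 92.1 and 144, 139 and 151 CPM in MP38 (log2 ratio -10.93 ± 0.10 SE, adjusted p = 1.86e-11).

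Markers of other cell types were checked in the same samples. The summed level of the 6 fibroblast markers was 2.83 to 4.04 CPM in 92.1 and 0.328 to 0.486 CPM in MP38, most of it COL1A1, and DCN was at 0 in all 6 samples. The 4 endothelial markers summed to 0.067 to 0.13 and 1.99 to 2.79 CPM, nearly all of it VWF in MP38. The 5 leukocyte markers summed to 0.576 to 0.788 and 0.532 to 0.566 CPM. The markers of these 3 cell types thus summed to under 5 CPM in every sample. Of the retinal pigment epithelium markers, BEST1, a chloride channel, measured 32.3, 33.6 and 60.9 CPM in 92.1 and 239, 244 and 227 CPM in MP38 (log2 ratio -2.48 ± 0.22 SE, adjusted p = 6.55e-06). RLBP1, a retinoid carrier, was also higher in MP38 (log2 ratio -3.24 ± 0.06 SE, adjusted p = 4.87e-10), while RPE65, the isomerase that defines that tissue, was at 0 in 92.1 and averaged 0.119 CPM in MP38. LRAT, a retinoid-processing enzyme, went the other way at 1.32, 1.36 and 1.22 CPM in 92.1 and 0.119, 0.0608 and 0.191 CPM in MP38 (log2 ratio 3.37 ± 0.29 SE, adjusted p = 5.24e-06). ESRP1, a splicing factor of epithelia, measured 43.9, 45.5 and 63.5 CPM in 92.1 and 4.54, 4.6 and 4.77 CPM in MP38 (log2 ratio 3.46 ± 0.15 SE, adjusted p = 4.23e-08), while KRT5 was at 0 in 92.1 and CDH1 and EPCAM were under 1 CPM in all 6 samples. Of the neuronal markers, SYT1, a synaptic vesicle protein, measured 0.0862, 0.054 and 0.0952 CPM in 92.1 and 27.7, 27.1 and 25.6 CPM in MP38, while SNAP25, a protein of vesicle fusion, was higher in 92.1 at 4.44, 3.9 and 3.72 CPM in 92.1 and 0.134, 0.0456 and 0.0441 CPM in MP38 (log2 ratio 5.72 ± 0.28 SE, adjusted p = 1.01e-07). The part of such genes in the other differences was not tested.

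**Figure D2:**
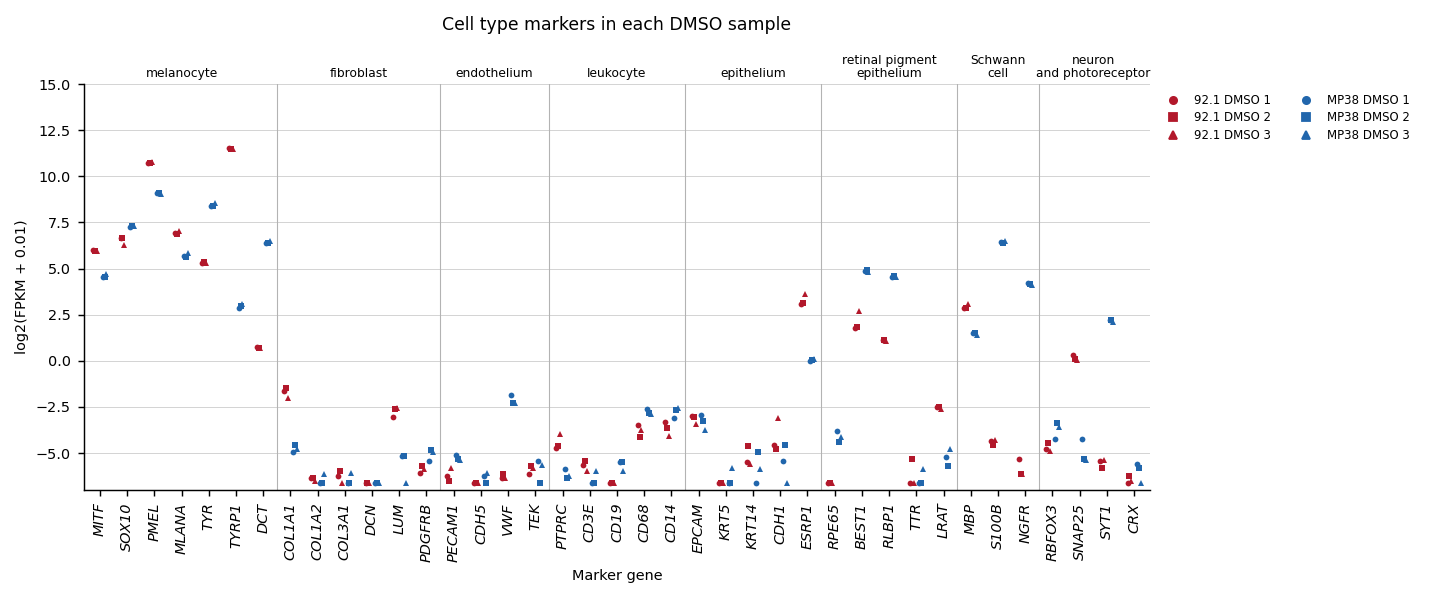
Level of each cell type marker in each of the 6 samples, as log2 of FPKM plus 0.01, with 92.1 in red and MP38 in blue and 1 symbol shape per sample number. Melanocyte markers stand high in both lines, TYRP1 and DCT change places between them, the Schwann cell markers S100B and NGFR are high in MP38 alone, and fibroblast, endothelial and leukocyte markers lie near the bottom.

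Markers of Schwann cells, the glia that share a neural crest origin with melanocytes, differed between the lines. NGFR, the nerve growth factor receptor that marks neural crest-like melanoma cells, was close to 0 in 92.1 at 0.067, 0.018 and 0.0173 CPM and measured 70.9, 69.7 and 65.8 CPM in MP38 (log2 ratio -10.95 ± 0.18 SE, adjusted p = 2e-10). S100B, given above with the melanocyte genes, was likewise higher in MP38. MBP, a myelin protein, was the 1 marker higher in 92.1 (log2 ratio 1.65 ± 0.07 SE, adjusted p = 4.13e-08). In bulk RNA, fewer cells of a kind and less RNA in each cell cannot be told apart.

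Of the neural crest and dedifferentiation list, 6 of 17 tested were higher in 92.1, 9 were higher in MP38 and 2 were not called, with a median of -0.63 (-0.42 without 92.1 sample 3). ERBB3, the neuregulin receptor of the crest lineage, measured 156, 153 and 139 CPM in 92.1 and 933, 939 and 965 CPM in MP38 (log2 ratio -2.66 ± 0.06 SE, adjusted p = 8.21e-10). FOXD3, a crest factor, measured 7.39, 6.94 and 7.24 CPM in 92.1 and 43.6, 47.1 and 44.2 CPM in MP38 (log2 ratio -2.65 ± 0.06 SE, adjusted p = 1.34e-09). Transcription factors of this list differed in both directions. SOX9 was higher in 92.1 at 7.91, 7.76 and 6.86 CPM in 92.1 and 0.0596, 0.076 and 0.0587 CPM in MP38 (log2 ratio 6.83 ± 0.18 SE, adjusted p = 2.16e-09). SNAI1, a repressor of epithelial genes, was higher in MP38 at 0.67, 0.693 and 0.563 CPM in 92.1 and 15.3, 15.7 and 14.6 CPM in MP38 (log2 ratio -4.56 ± 0.11 SE, adjusted p = 1.12e-09).

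The genes used to class uveal melanoma by expression gave no single answer. Of the class 1 markers, genes kept in tumours of low metastatic risk, 4 of 8 tested were higher in 92.1, 2 were higher in MP38 and 2 were not called. ID2, an inhibitor of differentiation factors, measured 91.4, 92.7 and 70.3 CPM in 92.1 and 11.1, 10.7 and 11.8 CPM in MP38 (log2 ratio 2.92 ± 0.11 SE, adjusted p = 2.09e-08). SATB1, a chromatin organiser, measured 44.7, 44.6 and 56.5 CPM in 92.1 and 6.24, 5.64 and 6.26 CPM in MP38 (log2 ratio 3.01 ± 0.11 SE, adjusted p = 1.55e-08). Both were higher in 92.1, whereas ROBO1, a guidance receptor, was higher in MP38 at 37.2, 37.1 and 39.6 CPM in 92.1 and 154, 157 and 153 CPM in MP38 (log2 ratio -2.03 ± 0.05 SE, adjusted p = 1.63e-09). Of the class 2 markers and PRAME, 3 of 5 were called higher in 92.1 and 2 in MP38. Among the former was the adhesion protein CDH1, under 1 CPM throughout (log2 ratio 2.10 ± 0.84 SE, adjusted p = 0.0437), whose call was lost without 92.1 sample 3 (adjusted p = 0.0759), without MP38 sample 1 or 3 (adjusted p = 0.11 and 0.122), with the replicate number as a block (adjusted p = 0.0942) and by library totals (adjusted p = 0.065). The list's median of 0.79 turned to -1.77 among genes of at least 5 CPM and to -0.060 with arm medians subtracted. HTR2B, a serotonin receptor, measured 9.12, 8.66 and 18.9 CPM in 92.1 and 0, 0.0608 and 0.0147 CPM in MP38 (log2 ratio 8.86 ± 0.61 SE, adjusted p = 1.06e-06), with 92.1 sample 3 at about double the other 2. ECM1, an extracellular matrix protein, was the reverse at 1.1, 1.2 and 1.2 CPM in 92.1 and 18.2, 19.1 and 18.8 CPM in MP38 (log2 ratio -4.00 ± 0.08 SE, adjusted p = 6.37e-10).

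PRAME, a cancer-testis antigen used as a separate risk marker in this tumour, separated the lines almost completely. It had 0, 1 and 0 counts in the 3 samples of 92.1 and measured 654, 656 and 694 CPM in MP38 (adjusted p = 2.28e-11). The gene lies at chr22:22547701-22559361 (GRCh38). Cancer-testis antigens are normally silent outside the germ line. Of 28 such genes listed, 8 could be tested, of which 7 were higher in MP38 and 1 in 92.1, 8 had a row in the MP38 table alone and 2 in the 92.1 table alone. PAGE5 was at 0 in 92.1 and measured 42.1, 39.8 and 44.6 CPM in MP38. CSAG1 measured 23.8, 24.7 and 25.3 CPM in MP38 with 1 count in all of 92.1. MAGEA3 and MAGEA6, which are near-identical copies so that reads may be divided wrongly between them, measured 79.3, 74.3 and 75.7 and 72.5, 72.5 and 67.5 CPM in MP38 and at most 2 counts in any 92.1 sample. SSX1, also from a family of near copies, was the 1 tested member higher in 92.1 (log2 ratio 5.42 ± 0.24 SE, adjusted p = 5.04e-08) and was picked out after its values were seen.

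The drivers of the tumour type were expressed in both lines. GNAQ measured 119, 120.3 and 112 CPM in 92.1 and 45.5, 46.4 and 47.8 CPM in MP38 (log2 ratio 1.33 ± 0.05 SE, adjusted p = 2.21e-08) and was higher in 92.1 without overlap. GNA11, its close relative, measured 66.5, 62.7 and 53.9 CPM in 92.1 and 54.7, 53.8 and 55.3 CPM in MP38 and was not called (log2 ratio 0.16 ± 0.08 SE, adjusted p = 0.0791) while 92.1 sample 3 overlapped MP38. Without that sample GNA11 was called higher in 92.1 (log2 ratio 0.27, adjusted p = 2.49e-06). BAP1, on 3p, measured 118, 114 and 108 CPM in 92.1 and 135, 138 and 128 CPM in MP38 (log2 ratio -0.24 ± 0.06 SE, adjusted p = 0.00298), a small difference that the scaling can add to. SF3B1, a core splicing factor, measured 455, 441 and 459.8 CPM in 92.1 and 206, 207 and 206 CPM in MP38 (log2 ratio 1.13 ± 0.04 SE, adjusted p = 2.6e-08). EIF1AX, a translation initiation factor, measured 331, 323 and 287 CPM in 92.1 and 98.9, 101 and 99.3 CPM in MP38 (log2 ratio 1.65 ± 0.06 SE, adjusted p = 2.09e-08). Neither overlapped between the lines, and both were higher in 92.1. Sequence variants of these genes were not analysed here.

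The exchange factor RASGRP3 and the kinases PRKCB and PRKCQ were under 1 CPM in MP38. RASGRP3, which carries Gq signals to RAS in this tumour, measured 459.6, 451 and 518 CPM in 92.1 and 0.715, 0.729 and 0.705 CPM in MP38 (log2 ratio 9.37 ± 0.09 SE, adjusted p = 2.28e-11). PRKCB and PRKCQ belong to the protein kinase C family. PRKCB measured 11.9, 11.7 and 9.96 CPM in 92.1 and 0.0596, 0.076 and 0.0441 CPM in MP38 (log2 ratio 7.52 ± 0.19 SE, adjusted p = 1.54e-09). PRKCQ measured 7.33, 7.02 and 6.41 CPM in 92.1 and 0.238, 0.365 and 0.352 CPM in MP38 (log2 ratio 4.44 ± 0.16 SE, adjusted p = 1.61e-08). RGS2, which shuts off Gq, was also higher in 92.1 at 50.9, 49.4 and 66.6 CPM in 92.1 and 2.04, 2.1 and 2.2 CPM in MP38 (log2 ratio 4.72 ± 0.14 SE, adjusted p = 3.8e-09). PLCB2, a phospholipase that Gq activates, measured 6.68, 6.92 and 7.65 CPM in 92.1 and 0.164, 0.228 and 0.132 CPM in MP38 (log2 ratio 5.34 ± 0.18 SE, adjusted p = 8.76e-09). Of the whole list of 24 Gq pathway genes and drivers, 12 of 23 tested were higher in 92.1, 7 were higher in MP38 and 4 were not called, with a median of 0.31 (0.10 by library totals).

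Genes switched on by the MAPK pathway, which RAS feeds, were for the most part lower in 92.1. Of this list, 3 of 20 tested were higher in 92.1, 13 were higher in MP38 and 4 were not called, with a median of -1.12. FOSL1, an AP-1 factor stabilised by ERK, measured 1.72, 1.58 and 1.37 CPM in 92.1 and 52.1, 51.8 and 45.9 CPM in MP38 (log2 ratio -5.00 ± 0.10 SE, adjusted p = 5.82e-10). SPRY4, a feedback inhibitor, measured 161, 158 and 174 CPM in 92.1 and 739, 742 and 683 CPM in MP38 (log2 ratio -2.14 ± 0.06 SE, adjusted p = 3.16e-09). ETV5, an ERK-induced factor, measured 112, 112 and 129 CPM in 92.1 and 377, 389 and 401 CPM in MP38 (log2 ratio -1.73 ± 0.07 SE, adjusted p = 2.37e-08). EPHA2, an ephrin receptor, was 1 of the 3 members higher in 92.1, at 40.1, 39.2 and 41.6 CPM in 92.1 and 2.99, 3.18 and 3.91 CPM in MP38 (log2 ratio 3.58 ± 0.10 SE, adjusted p = 3.25e-09). CCND1, cyclin D1, which is both a MAPK target and a G1 regulator, was not called at 477, 451 and 467 CPM in 92.1 and 437, 437 and 452 CPM in MP38 (log2 ratio 0.07 ± 0.05 SE, adjusted p = 0.163). It was called without 92.1 sample 3 (log2 ratio 0.10, adjusted p = 0.0142), but with library totals alone it was called higher in MP38 (log2 ratio -0.13, adjusted p = 0.0256).

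The YAP and TAZ genes, another arm of Gq signalling, were mixed. Of the list, 7 of 18 tested were higher in 92.1, 8 were higher in MP38 and 3 were not called. WWTR1, which encodes TAZ itself, was nearly absent from 92.1 at 0.651, 0.531 and 0.892 CPM and measured 353, 358 and 344 CPM in MP38 (log2 ratio -8.98 ± 0.15 SE, adjusted p = 2.33e-10). TEAD1, the DNA-binding partner, was also higher in MP38 (log2 ratio -1.59 ± 0.05 SE, adjusted p = 7.8e-09). AMOTL2 and LATS2, targets that feed back on the pathway, were higher in 92.1, with AMOTL2 at 111, 107 and 119 CPM in 92.1 and 21.1, 20.4 and 21.7 CPM in MP38 (log2 ratio 2.41 ± 0.06 SE, adjusted p = 1.29e-09). LATS2 measured 61, 59.5 and 59.7 CPM in 92.1 and 14, 14.4 and 14.2 CPM in MP38 (log2 ratio 2.08 ± 0.05 SE, adjusted p = 1.57e-09).

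Receptor tyrosine kinases differed in both directions, with 11 of 22 tested members higher in each. EPHA3, an ephrin receptor, measured 0.239, 0.243 and 0.303 CPM in 92.1 and 167, 168 and 186 CPM in MP38 (log2 ratio -9.36 ± 0.10 SE, adjusted p = 3.28e-11). NTRK2, the receptor of brain-derived neurotrophic factor, was the reverse at 34.3, 35.9 and 34.6 CPM in 92.1 and 0.0894, 0.182 and 0.117 CPM in MP38 (log2 ratio 8.06 ± 0.14 SE, adjusted p = 2.35e-10). ALK measured 43.7, 42 and 40.1 CPM in 92.1 and 1.37, 1.11 and 1.75 CPM in MP38 (log2 ratio 4.89 ± 0.13 SE, adjusted p = 2.85e-09). MET, the hepatocyte growth factor receptor, measured 66.1, 59.7 and 68.9 CPM in 92.1 and 16.9, 17.8 and 16.7 CPM in MP38 (log2 ratio 1.92 ± 0.07 SE, adjusted p = 1.37e-08). Both of these were higher in 92.1, and AXL, a receptor of drug-tolerant melanoma cells, was higher in MP38 at 0.0766, 0.072 and 0.0433 CPM in 92.1 and 7.3, 6.82 and 7.34 CPM in MP38 (log2 ratio -6.78 ± 0.18 SE, adjusted p = 2.28e-09). All 22 tested members were thus called in one direction or the other, against 79.9% of all tested genes. The 4 untested members, KIT and EGFR among them, were at or near 0 in both lines.

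Genes that were on in one line and off in the other were protein-coding genes that averaged 5 CPM or more over the samples of one line while each sample of the other held 3 counts at most. By that definition 96 genes were on in 92.1 and 96 were on in MP38, of which 27 and 31 had no count at all in the other line. Because of the unequal depth, 3 counts stand for up to 0.0456 CPM in MP38 and up to 0.0287 CPM in 92.1. The limit for off was thus stricter in 92.1, and the equal numbers rest on this cut-off. At a minimum of 1 CPM the numbers were 170 and 203, and with up to 10 counts allowed in the other line 165 genes were on in 92.1. Another 23 genes at 5 CPM or more had a row in the 92.1 table alone and 8 in the MP38 table alone, and these have no count to compare. On the X chromosome lay 11 of the 119 genes of 92.1 and 19 of the 104 genes of MP38 (9.24% and 18.3%, against 3.33% and 3.48% of all protein-coding genes at 5 CPM or more), PAGE5 and MAGEA3 among the latter.

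Among the genes on in 92.1, SLC38A1, a glutamine transporter, measured 964, 942 and 1286 CPM against 3, 0 and 1 counts in the MP38 samples (chr12:46183063-46270017). SCIN, scinderin, which severs actin filaments, measured 211, 209 and 292 CPM against 2, 0 and 0 counts. ADRA2A, an adrenergic receptor, measured 192, 195 and 198 CPM against 2, 1 and 0 counts. The first 2 were highest in 92.1 sample 3 and the third was even across samples. IGFBPL1, a secreted relative of the IGF-binding proteins, and COL4A5, a collagen of basement membranes, had no count in MP38. IGFBPL1 at 87, 87.4 and 68.4 CPM was at least 1777-fold higher in 92.1, and COL4A5 at 78.6, 79.9 and 77.5 CPM at least 1726-fold, both against a floor of 3 counts per MP38 sample. CD36, a fatty acid transporter with a few counts in MP38, is no on/off gene by the definition and measured 1084, 1087 and 1154 CPM in 92.1 and 0.0447, 0.0608 and 0.0441 CPM in MP38 (log2 ratio 14.40 ± 0.10 SE, adjusted p = 1.13e-11).

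Among the genes on in MP38, TNC, tenascin C, an extracellular matrix protein of migrating neural crest cells, measured 1561, 1582 and 1550.3 CPM against 0, 1 and 0 counts in the 92.1 samples (chr9:115019575-115118257). SCCPDH, an oxidoreductase-like protein, measured 223, 214 and 221 CPM and was at least 7631-fold higher than in 92.1, where it had no count. CHL1, a neural adhesion molecule, had no count in 92.1 either and measured 143, 145 and 144 CPM, at least 5008-fold higher. The values within MP38 were even, with an SD of 1.08 CPM for CHL1. MMP2, a gelatinase that degrades basement membrane, measured 132, 134 and 148 CPM, at least 4812-fold higher, and PDLIM4, an actin-associated protein, 134, 134 and 137 CPM, at least 4699-fold higher. KCNA2, a voltage-gated potassium channel, measured 132, 133 and 139 CPM against 3, 2 and 1 counts.

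Adhesion and matrix genes were on the whole higher in MP38. Of the mesenchymal and adhesion list, 3 of 29 tested were higher in 92.1, 24 were higher in MP38 and 2 were not called, with a median of -1.01. L1CAM, a neural adhesion molecule, measured 5.32, 5.47 and 7.06 CPM in 92.1 and 690.3, 709 and 710.2 CPM in MP38 (log2 ratio -6.88 ± 0.12 SE, adjusted p = 2.66e-10). CDH2, N-cadherin, measured 1.32, 1.25 and 0.693 CPM in 92.1 and 60.2, 60.8 and 63.2 CPM in MP38 (log2 ratio -5.82 ± 0.19 SE, adjusted p = 7.39e-09). Integrins differed in both directions. ITGB3, the beta subunit of the vitronectin receptor, measured 0.45, 0.414 and 0.277 CPM in 92.1 and 219, 218 and 189 CPM in MP38 (log2 ratio -9.10 ± 0.15 SE, adjusted p = 1.79e-10). ITGA4, an alpha subunit that binds VCAM1, measured 0.0383, 0.009 and 0.026 CPM in 92.1 and 26.9, 27.1 and 28.5 CPM in MP38 (log2 ratio -10.07 ± 0.17 SE, adjusted p = 2e-10). ITGB1, the common beta subunit, went the other way at 764, 749.7 and 751 CPM in 92.1 and 176, 176 and 179.9 CPM in MP38 (log2 ratio 2.09 ± 0.04 SE, adjusted p = 6.64e-10). VIM, vimentin, the filament of mesenchymal cells, was abundant in both and somewhat higher in MP38 at 1308, 1283 and 1454 CPM in 92.1 and 1937, 1873 and 2053 CPM in MP38 (log2 ratio -0.54 ± 0.06 SE, adjusted p = 3.22e-05).

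The interferon-stimulated genes were nearly all higher in MP38. These genes are switched on when a cell senses interferon or foreign nucleic acid. Of the list, 1 of 29 tested was higher in 92.1, 28 were higher in MP38 and none was not called, with a median of -4.17 (-1.94 on log2(FPKM + 1), which understates low genes), and their summed level was 184 to 200.4 CPM in 92.1 and 1499 to 1564 CPM in MP38. IFI6, a mitochondrial protein with antiviral action, measured 3.16, 3.26 and 3.59 CPM in 92.1 and 265, 262 and 254 CPM in MP38 (log2 ratio -6.28 ± 0.07 SE, adjusted p = 4.15e-11). IFIT1, which binds foreign RNA ends, measured 1.25, 1.32 and 1.13 CPM in 92.1 and 36.1, 37.4 and 33.1 CPM in MP38 (log2 ratio -4.85 ± 0.09 SE, adjusted p = 3.7e-10). IRF7, the factor that amplifies interferon production, measured 4.58, 4.78 and 4.87 CPM in 92.1 and 109, 109.6 and 105 CPM in MP38 (log2 ratio -4.51 ± 0.06 SE, adjusted p = 6.05e-11). In each of these the 2 lines were far apart and the samples of a line close together. BST2, tetherin, which holds budding viruses at the cell surface, was picked out after its values were seen. It measured 0.0383, 0.162 and 0.156 CPM in 92.1 and 370.4, 359 and 334 CPM in MP38 (log2 ratio -11.50 ± 0.22 SE, adjusted p = 3.9e-10). The 1 member higher in 92.1 was STING1, the adaptor that senses cyclic dinucleotides from the DNA sensor CGAS, at 65.5, 65.2 and 70.7 CPM in 92.1 and 14.7, 15.1 and 16 CPM in MP38 (log2 ratio 2.14 ± 0.06 SE, adjusted p = 3.68e-09). CGAS itself, also named after its values were seen, was near 0 in 92.1 at 0.0479, 0.027 and 0.0952 CPM and measured 10.1, 10.3 and 10.9 CPM in MP38. MP38 thus held transcripts of both the sensor and its adaptor, while 92.1 had more of the adaptor and almost none of the sensor.

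The promoters of IFI6 and IFIT1 are shown because they hold the core of the interferon response element, GAAANNGAAA (N is any base), which binds STAT and IRF factors. Capitals mark it on either strand (TTTCNNTTTC where reversed). The runs are again 250 bases before to 50 after the RefSeq start (GRCh38.p14), chr1:27672143-27672442, minus strand for IFI6 and chr10:89392373-89392672, plus strand for IFIT1.
IFI6: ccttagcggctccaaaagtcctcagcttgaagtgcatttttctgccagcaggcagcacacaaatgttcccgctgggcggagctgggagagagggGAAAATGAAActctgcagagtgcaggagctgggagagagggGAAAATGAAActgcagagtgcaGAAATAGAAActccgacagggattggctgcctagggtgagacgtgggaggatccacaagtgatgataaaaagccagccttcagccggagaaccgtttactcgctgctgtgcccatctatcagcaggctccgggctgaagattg
IFIT1: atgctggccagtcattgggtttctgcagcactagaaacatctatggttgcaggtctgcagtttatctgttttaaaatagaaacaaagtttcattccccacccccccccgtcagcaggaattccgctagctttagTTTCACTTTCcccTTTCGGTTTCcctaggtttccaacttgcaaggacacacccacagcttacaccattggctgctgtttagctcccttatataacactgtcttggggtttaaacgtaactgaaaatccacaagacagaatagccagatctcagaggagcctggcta
IFI6 holds the element 156, 115 and 93 bases before its start and IFIT1 116 and 103 bases before it. Of 20 tested members of the list with a promoter in the table, 15 (75%) held it, against 3.57% of all promoters. The list was drawn up to hold interferon-stimulated genes, so a higher share follows from its making. Here too members are counted by gene and the share of all by promoter, and a match is only a description.

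Genes of antigen presentation by HLA class I were also mostly higher in MP38. Of the class I and peptide loading list, 4 of 19 tested were higher in 92.1, 14 were higher in MP38 and 1 was not called, with a median of -1.42. The summed level of the list nevertheless overlapped between the lines, at 1953 to 2295 CPM in 92.1 and 2087 to 2476 CPM in MP38. The lower median in 92.1 is thus not a lower total. NLRC5, the activator of class I genes, measured 2.54, 2.56 and 2.26 CPM in 92.1 and 24.1, 24 and 21.6 CPM in MP38 (log2 ratio -3.24 ± 0.09 SE, adjusted p = 2.69e-09). TAP1, a subunit of the peptide transporter, measured 5.21, 5.03 and 4.56 CPM in 92.1 and 31.8, 31.5 and 29.5 CPM in MP38 (log2 ratio -2.65 ± 0.08 SE, adjusted p = 3.73e-09). PSMB8, an immunoproteasome subunit, measured 5.36, 5.01 and 6.02 CPM in 92.1 and 47.3, 44.7 and 45.3 CPM in MP38 (log2 ratio -3.06 ± 0.08 SE, adjusted p = 2.23e-09). HLA genes differ between people and share sequence, so their counts depend on how well each line's alleles match the reference. With that limit HLA-E, a ligand of natural killer cell receptors, measured 59.3, 54.2 and 64.2 CPM in 92.1 and 248, 237 and 240.1 CPM in MP38 (log2 ratio -2.03 ± 0.07 SE, adjusted p = 9.61e-09). Class II genes were low in both lines, summing to at most 21.7 CPM, and 5 of 7 tested were higher in 92.1.

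**Figure D3:**
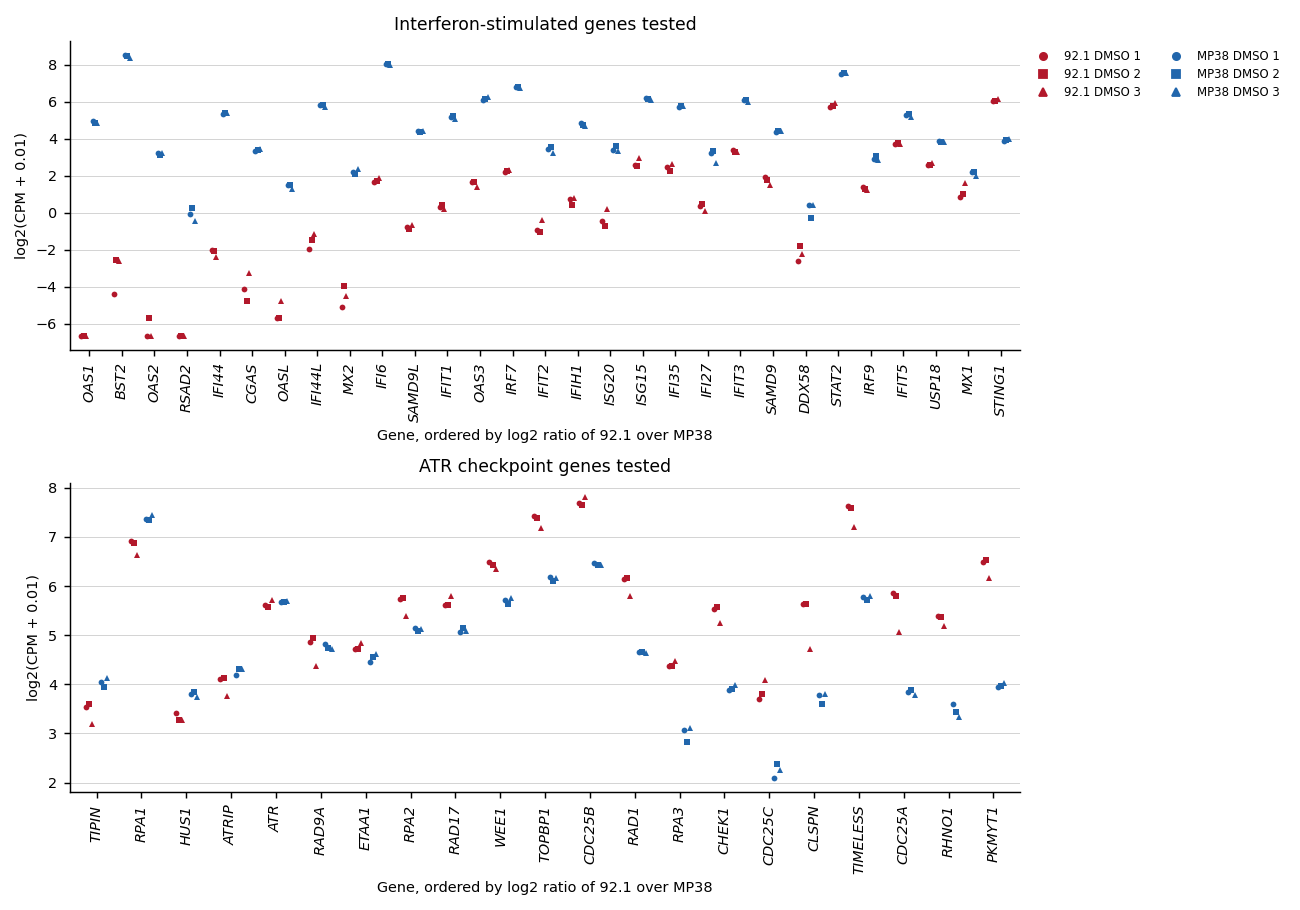
Level in each sample, as log2 of CPM plus 0.01, of the tested interferon-stimulated genes (top) and ATR checkpoint genes (bottom), ordered by the log2 ratio of 92.1 over MP38, with 92.1 in red, MP38 in blue and triangles for sample 3. The interferon genes lie higher in MP38 up to STING1 at the right end, and most checkpoint genes lie higher in 92.1 while ATR overlaps, with 92.1 sample 3 often below samples 1 and 2.

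The cell cycle genes were higher in 92.1 almost throughout. Of 36 mitosis genes, 35 were higher in 92.1, none was higher in MP38 and 1 was not called, and the median log2 ratio was 1.76. That share of 35 in 36 stands against 38.9% of all tested genes. MKI67, the proliferation antigen Ki-67, measured 314, 306 and 274 CPM in 92.1 and 105, 103 and 108 CPM in MP38 (log2 ratio 1.50 ± 0.06 SE, adjusted p = 3.65e-08). CCNA2, cyclin A, which drives S phase and entry into mitosis, measured 171, 171 and 166 CPM in 92.1 and 15, 14.2 and 14.2 CPM in MP38 (log2 ratio 3.55 ± 0.05 SE, adjusted p = 1.36e-10). The groups of both genes lay well apart. CDK1, the mitotic kinase, measured 198, 198 and 175 CPM in 92.1 and 25.8, 28.5 and 28.3 CPM in MP38 (log2 ratio 2.79 ± 0.07 SE, adjusted p = 1.97e-09). CCNB1, its cyclin partner, measured 184, 183 and 170.3 CPM in 92.1 and 39.9, 39.7 and 38.8 CPM in MP38 (log2 ratio 2.18 ± 0.05 SE, adjusted p = 1.39e-09). Neither of these overlapped between the lines. CENPF, a kinetochore protein, and NUF2, which ties kinetochores to microtubules, had log2 ratios of 1.62 ± 0.05 and 2.60 ± 0.07. PRC1, the member not called, had no more than 1.81 CPM in any sample. It was named after its value was seen.

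The replication genes were likewise higher in 92.1. Of the list of DNA replication genes and E2F targets, 40 of 42 tested were higher in 92.1, 1 was higher in MP38 and 1 was not called, with a median of 1.49. PCNA, the sliding clamp of DNA polymerase, measured 345, 347 and 203 CPM in 92.1 and 37.9, 38.9 and 41.3 CPM in MP38 (log2 ratio 2.92 ± 0.19 SE, adjusted p = 6.9e-07). RFC3, part of the complex that loads it, measured 123, 118 and 115 CPM in 92.1 and 27, 27.4 and 29.2 CPM in MP38 (log2 ratio 2.09 ± 0.06 SE, adjusted p = 2.38e-09). All 3 samples of 92.1 lay above MP38 for both, though PCNA was lower in sample 3. PRIM1, the primase, measured 50.8, 48.5 and 51.6 CPM in 92.1 and 10.3, 9.19 and 10.6 CPM in MP38 (log2 ratio 2.33 ± 0.07 SE, adjusted p = 5.12e-09). CDT1, which licenses origins, measured 87.8, 89.2 and 89.8 CPM in 92.1 and 30.4, 29.9 and 33.4 CPM in MP38 (log2 ratio 1.51 ± 0.06 SE, adjusted p = 2e-08). In 92.1 sample 3 the list lay lower than in samples 1 and 2, with a median log2 difference of -0.37. Without sample 3, 41 members were called higher in 92.1. The member higher in MP38 was RPA1, a single-strand binding subunit, and MCM7, a subunit of the replicative helicase, was not called with all samples (log2 ratio 0.18 ± 0.08) and was the member called without sample 3. Both were named after their values were seen.

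The promoters of PCNA and CDT1 are shown because each holds a site of the E2F type, TTTCCCGC, in these 300 bases. Capitals mark it on either strand (GCGGGAAA on the strand printed where reversed), and the runs lie at chr20:5126573-5126872, minus strand for PCNA and chr16:88803539-88803838, plus strand for CDT1 (RefSeq, GRCh38.p14).
PCNA: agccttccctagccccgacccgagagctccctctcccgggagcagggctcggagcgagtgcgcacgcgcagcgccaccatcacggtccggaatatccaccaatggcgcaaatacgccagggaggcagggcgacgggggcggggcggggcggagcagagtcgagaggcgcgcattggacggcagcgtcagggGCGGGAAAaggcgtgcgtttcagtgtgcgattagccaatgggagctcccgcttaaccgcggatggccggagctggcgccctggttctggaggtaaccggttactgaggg
CDT1: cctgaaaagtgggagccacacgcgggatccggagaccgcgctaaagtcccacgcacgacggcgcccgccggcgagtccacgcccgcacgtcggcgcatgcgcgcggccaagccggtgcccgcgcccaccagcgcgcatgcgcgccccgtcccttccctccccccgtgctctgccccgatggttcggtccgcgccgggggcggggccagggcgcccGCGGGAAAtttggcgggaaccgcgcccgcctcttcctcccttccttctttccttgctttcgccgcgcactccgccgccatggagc
Of 34 tested members with a promoter in the table, 9 (26.5%) held this spelling, against 1.63% of all promoters. A second spelling, TTTGGCGC, was held by 8 members (23.5%), against 0.652% of all promoters. The list was drawn up to hold E2F targets, so a higher share follows from its making. Members are again counted by gene and the share of all by promoter, and a match is only a description.

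Regulators of the G1 phase differed in both directions. Of the G1 list, 11 of 20 tested were higher in 92.1, 5 were higher in MP38 and 4 were not called, with a median of 0.32 (0.11 by library totals). CDK2, the kinase of the G1 to S step, measured 818, 806 and 828 CPM in 92.1 and 169, 165 and 165 CPM in MP38 (log2 ratio 2.30 ± 0.04 SE, adjusted p = 4.4e-10). E2F3, an activating E2F, measured 217, 209 and 193 CPM in 92.1 and 37.8, 37.4 and 37.3 CPM in MP38 (log2 ratio 2.46 ± 0.06 SE, adjusted p = 1.18e-09). CDKN2A, which encodes p16 and ARF, was higher in MP38 at 28.7, 28.9 and 31.6 CPM in 92.1 and 120.1, 117 and 109 CPM in MP38 (log2 ratio -1.95 ± 0.06 SE, adjusted p = 7.05e-09), and its neighbour CDKN2B measured 6.13, 6.27 and 6.18 CPM in 92.1 and 27, 27.1 and 20.9 CPM in MP38 (log2 ratio -2.01 ± 0.11 SE, adjusted p = 1.76e-07). CDK2 and E2F3 were thus higher in 92.1 and CDKN2A and CDKN2B higher in MP38, without overlap. Another inhibitor, CDKN1A, given below, was higher in 92.1. At least a doubling was called for 5 members of the list toward 92.1 and for 4 toward MP38. RB1, the brake on E2F, measured 63, 60.4 and 55.8 CPM in 92.1 and 35.3, 35.1 and 35.3 CPM in MP38 (log2 ratio 0.76 ± 0.06 SE, adjusted p = 2.07e-06). MYC was not called at 499, 521 and 575 CPM in 92.1 and 560.1, 563 and 585 CPM in MP38 (log2 ratio -0.10 ± 0.06 SE, adjusted p = 0.154), and the groups overlapped through 92.1 sample 3. Without that sample MYC was called higher in MP38 (log2 ratio -0.13, adjusted p = 0.00134), as it was on scaling by library totals (log2 ratio -0.31, adjusted p = 0.0013).

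ATR itself was not called, at 48.7, 47.4 and 52.6 CPM in 92.1 and 51.3, 51.2 and 51.8 CPM in MP38 (log2 ratio -0.05 ± 0.05 SE, adjusted p = 0.39), and the groups overlapped. Scaled by library totals alone it was called higher in MP38 (log2 ratio -0.26, adjusted p = 0.00209). Most genes that act with it were higher in 92.1. Of the ATR checkpoint list, 15 of 21 tested were higher in 92.1, 4 were higher in MP38 and 2 were not called, with a median of 1.19 (16 higher in 92.1 without its sample 3). CHEK1, the kinase that ATR activates, measured 46.2, 47.4 and 38 CPM in 92.1 and 14.9, 15 and 15.8 CPM in MP38 (log2 ratio 1.53 ± 0.09 SE, adjusted p = 3.37e-07). TOPBP1, the activator of ATR, measured 173, 167 and 146 CPM in 92.1 and 72.7, 69.1 and 71.9 CPM in MP38 (log2 ratio 1.19 ± 0.07 SE, adjusted p = 3.33e-07). TIMELESS, which steadies the fork, measured 198, 193 and 148 CPM in 92.1 and 55.2, 52.9 and 55.5 CPM in MP38 (log2 ratio 1.72 ± 0.11 SE, adjusted p = 4.59e-07). These were separated without overlap although 92.1 sample 3 was the lowest of its line in each. PKMYT1, which holds CDK1 inactive, measured 90.2, 92.9 and 71.6 CPM in 92.1 and 15.4, 15.6 and 16.2 CPM in MP38 (log2 ratio 2.43 ± 0.10 SE, adjusted p = 3.2e-08). CDC25B, which releases it, measured 205, 201 and 224 CPM in 92.1 and 89.2, 85.7 and 86.6 CPM in MP38 (log2 ratio 1.27 ± 0.06 SE, adjusted p = 5.93e-08). RHNO1, a partner of TOPBP1 and the 9-1-1 clamp, had a log2 ratio of 1.86 ± 0.09.

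Homologous recombination, which rebuilds broken forks from the sister strand, was higher in 92.1 at most of its genes. Of the recombination and Fanconi list, 25 of 29 tested were higher in 92.1, 3 were higher in MP38 and 1 was not called, with a median of 1.25 (0.75 on log2(FPKM + 1)). BRCA2, the mediator of strand exchange, measured 53, 51.2 and 47.8 CPM in 92.1 and 14.1, 15 and 14.6 CPM in MP38 (log2 ratio 1.80 ± 0.06 SE, adjusted p = 1.2e-08). FANCD2, the protein marked at interstrand crosslinks, measured 64.9, 65.8 and 58.1 CPM in 92.1 and 24.4, 25 and 25.1 CPM in MP38 (log2 ratio 1.34 ± 0.06 SE, adjusted p = 7.3e-08). UBE2T, the enzyme that marks it, measured 74, 70.9 and 65.6 CPM in 92.1 and 11.6, 10.7 and 11.2 CPM in MP38 (log2 ratio 2.65 ± 0.07 SE, adjusted p = 1.7e-09). XRCC2 and RAD54B, which act in the same step, had log2 ratios of 2.38 ± 0.09 and 2.86 ± 0.09.

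Genes of ATM signalling and end joining differed in both directions. Of this list, 15 of 23 tested were higher in 92.1, 5 were higher in MP38 and 3 were not called, with a median of 0.63 (0.28 on log2(FPKM + 1)). ATM, the kinase that answers double-strand breaks, was higher in MP38, at 59.9, 58.5 and 68.3 CPM in 92.1 and 328, 341 and 328 CPM in MP38 (log2 ratio -2.42 ± 0.07 SE, adjusted p = 3.58e-09). It lies on 11q, at chr11:108223044-108369102. POLQ, the polymerase of microhomology-mediated joining, was higher in 92.1 at 55, 54.2 and 55.2 CPM in 92.1 and 7.61, 8.26 and 7.99 CPM in MP38 (log2 ratio 2.78 ± 0.06 SE, adjusted p = 6.73e-10), as was MDC1, the scaffold at marked breaks, at 363, 356 and 286 CPM in 92.1 and 54.2, 55.6 and 56.2 CPM in MP38 (log2 ratio 2.60 ± 0.09 SE, adjusted p = 1.29e-08). NBN, a sensor of breaks on 8q, measured 112, 103 and 102 CPM in 92.1 and 45.1, 43.4 and 43.3 CPM in MP38 (log2 ratio 1.27 ± 0.06 SE, adjusted p = 4.65e-08). PRKDC, the DNA-dependent protein kinase, also on 8q, measured 1113, 1090.0 and 936 CPM in 92.1 and 547, 549.9 and 539.7 CPM in MP38 (log2 ratio 0.94 ± 0.07 SE, adjusted p = 1.4e-06).

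Of the excision and mismatch repair genes, 21 of 34 tested were higher in 92.1, 10 were higher in MP38 and 3 were not called, with a median of 0.36 (0.11 on log2(FPKM + 1)). TDG, a glycosylase for thymine mispairs, measured 102, 102 and 85.3 CPM in 92.1 and 14.8, 15.3 and 15.1 CPM in MP38 (log2 ratio 2.68 ± 0.08 SE, adjusted p = 4.4e-09). POLB, the gap-filling polymerase, measured 45.1, 47 and 49.9 CPM in 92.1 and 14.5, 13.4 and 14.1 CPM in MP38 (log2 ratio 1.76 ± 0.06 SE, adjusted p = 1.53e-08). MGMT, which removes alkyl groups from guanine, was higher in MP38 at 15, 15.3 and 15.7 CPM in 92.1 and 37.5, 35.2 and 34.9 CPM in MP38 (log2 ratio -1.23 ± 0.06 SE, adjusted p = 9.69e-08), as was OGG1, the glycosylase for oxidised guanine (log2 ratio -1.28 ± 0.06 SE, adjusted p = 1.22e-07). Of the translesion and fork remodelling genes, 12 of 15 tested were higher in 92.1, 1 was higher in MP38 and 2 were not called, with a median of 0.48 (0.22 on log2(FPKM + 1)). WRN, a helicase on 8p, measured 82.9, 79.7 and 78.8 CPM in 92.1 and 30.6, 32.9 and 31.5 CPM in MP38 (log2 ratio 1.35 ± 0.05 SE, adjusted p = 2.31e-08). REV3L, the catalytic subunit of polymerase zeta, had a log2 ratio of 1.17 ± 0.07.

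Genes of the response to genotoxic stress were divided. Of that list, 16 of 28 tested were higher in 92.1, 9 were higher in MP38 and 3 were not called, with a median of 0.56 (0.29 on log2(FPKM + 1)). MDM2, a ubiquitin ligase, measured 78.2, 77.4 and 65.6 CPM in 92.1 and 42.5, 41.6 and 43.8 CPM in MP38 (log2 ratio 0.79 ± 0.07 SE, adjusted p = 8.12e-06). CDKN1A, an inhibitor of cyclin-dependent kinases, measured 20.7, 20.7 and 16.4 CPM in 92.1 and 9.88, 10.4 and 9.03 CPM in MP38 (log2 ratio 0.98 ± 0.11 SE, adjusted p = 2.34e-05). Neither overlapped between the lines. TNFRSF10B, the death receptor DR5 on 8p, was nearly absent from MP38 at 163, 159.5 and 163 CPM in 92.1 and 0.536, 0.805 and 0.72 CPM in MP38 (log2 ratio 7.88 ± 0.11 SE, adjusted p = 8.37e-11). PLK2 went the other way at 39.8, 40.8 and 38.1 CPM in 92.1 and 197, 193 and 205 CPM in MP38 (log2 ratio -2.33 ± 0.05 SE, adjusted p = 1.02e-09).

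Of the polycomb and DNA methylation genes, 17 of 26 tested were higher in 92.1, 6 were higher in MP38 and 3 were not called, with a median of 0.81. DNMT3A, which sets new methylation, measured 149, 143 and 148 CPM in 92.1 and 40.6, 38.7 and 41 CPM in MP38 (log2 ratio 1.87 ± 0.05 SE, adjusted p = 2.45e-09). TET1, which removes it, measured 57.3, 57.5 and 67.7 CPM in 92.1 and 6.35, 5.83 and 5.64 CPM in MP38 (log2 ratio 3.36 ± 0.09 SE, adjusted p = 2.46e-09). PHF19, a polycomb recruiter, was higher in MP38 at 2.74, 2.76 and 3.41 CPM in 92.1 and 67.5, 67.5 and 64.8 CPM in MP38 (log2 ratio -4.49 ± 0.09 SE, adjusted p = 6.4e-10). HOX genes, which keep a record of a cell's position along the body axis, were divided, with 16 of 35 tested higher in 92.1, 11 higher in MP38 and 8 not called. HOXB13 measured 20.1, 19.2 and 20.1 CPM in 92.1 and 0, 0.0608 and 0 CPM in MP38 (log2 ratio 9.86 ± 0.31 SE, adjusted p = 5.91e-09), and HOXC10 was its reverse at 0.0192, 0.018 and 0.0519 CPM in 92.1 and 24.7, 22.9 and 23.1 CPM in MP38 (log2 ratio -9.54 ± 0.18 SE, adjusted p = 3.53e-10). The HOX clusters hold overlapping antisense genes and strand use in counting is not given in the sources used here, which leaves single HOX values uncertain.

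Glycolysis genes and targets of hypoxia were higher in MP38. Of the list, 6 of 24 tested were higher in 92.1, 17 were higher in MP38 and 1 was not called, with a median of -0.55. SLC2A3, a glucose transporter, measured 5, 4.44 and 6.01 CPM in 92.1 and 62.9, 62.7 and 58.9 CPM in MP38 (log2 ratio -3.58 ± 0.11 SE, adjusted p = 4.87e-09), and HK2, hexokinase, measured 72.5, 71.3 and 77.6 CPM in 92.1 and 202, 209 and 191 CPM in MP38 (log2 ratio -1.44 ± 0.06 SE, adjusted p = 2.75e-08). ADM, adrenomedullin, a hypoxia target with 1 to 3 counts per sample of 92.1, measured 25.8, 25.2 and 23.8 CPM in MP38 (adjusted p = 1.36e-10). ALDOC, an aldolase, was the reverse at 15.2, 15.7 and 13.4 CPM in 92.1 and 0.805, 0.684 and 1.06 CPM in MP38 (log2 ratio 4.11 ± 0.15 SE, adjusted p = 1.47e-08). Nuclear genes of oxidative phosphorylation were divided, with 16 of 33 higher in 92.1 and 12 higher in MP38, at a median of 0.23, and so were the ribosomal protein genes, with 10 and 18 of 32 at a median of -0.18. Ribosomal protein genes have many near-identical copies and single values are uncertain.

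The amino acid stress genes under ATF4 are the list in which DMSO sample 3 of 92.1 changed the answer. In that sample the 18 tested members lay a median of 1.99 on the log2 scale above samples 1 and 2. ATF4, the factor itself, measured 471, 474 and 1207 CPM in 92.1 and 887, 843 and 786 CPM in MP38, and SLC7A11, the cystine transporter, measured 13.7, 13.6 and 264 CPM in 92.1 and 151, 151 and 124 CPM in MP38. ASNS, asparagine synthetase, measured 2.73, 1.91 and 36.7 CPM in 92.1 and 30.6, 30.1 and 29.2 CPM in MP38. These 3, named after their values were seen, were each far higher in sample 3 than in samples 1 and 2, and none was called between the lines with all samples. With all samples, 2 of 18 members were higher in 92.1, 5 were higher in MP38 and 11 were not called, at a median of -0.62. Without sample 3, 16 members were called higher in MP38, at a median of -1.73. PHGDH, the first enzyme of serine synthesis, was low in every sample of 92.1, at 0.22, 0.396 and 0.441 CPM in 92.1 and 599.6, 587 and 561 CPM in MP38 (log2 ratio -10.67 ± 0.17 SE, adjusted p = 1.87e-10). What set sample 3 apart was not tested.

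Expression along the chromosomes was summarised as the median log2 ratio of tested protein-coding genes on each arm, minus the median over all 14120 such autosomal genes, 0.09. Such a median follows the dosage of an arm only loosely, since every gene also has its own regulation, and copy number itself was not measured. Over the 39 arms with at least 50 genes the medians ran from -0.96 on 11p to 1.45 on 8p. The quartiles over all autosomal genes were -0.90 and 0.78, a wider range than that of most arm medians.

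Chromosome 8 stood highest. On 8p the median was 1.45 over 179 genes, with quartiles at 0.50 and 2.20, and 81.6% of the genes were called higher in 92.1, against 45.3% of all autosomal genes. On 8q the median was 1.00 over 323 genes, with quartiles at -0.50 and 1.82. Each sample set against the mean of the other line, on a log2 scale with 0.5 CPM added, gave 1.29 to 1.34 for 8p and 0.88 to 0.94 for 8q. The samples thus differed among themselves by far less than the arms did from 0. Gene lists include members on these arms, and subtracting each gene's arm median moved the median of mitosis genes from 1.76 to 1.73, of replication genes from 1.49 to 1.66 and of ATR checkpoint genes from 1.19 to 0.89.

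**Figure D4:**
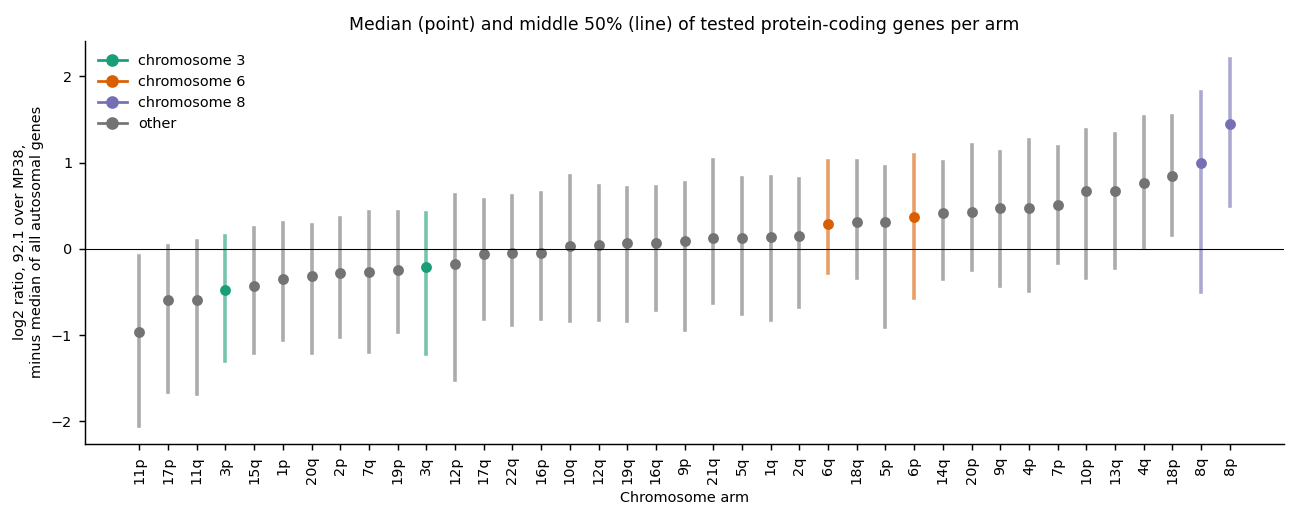
Median (point) and middle 50% (line) of the log2 ratio of 92.1 over MP38 for tested protein-coding genes on each autosomal arm with at least 50 genes, after subtraction of the median over all such genes. Both arms of chromosome 8 stand at the right end, at 1.00 and 1.45, chromosome 6 lies above 0, and chromosome 3 lies below it.

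Chromosome 8 was not even along its length. Divided into 13 blocks of 38 or 39 tested genes, the first 10 blocks, chr8:232137-123275541, had medians of 1.10 to 1.84. The last 3 blocks, chr8:123319850-145066685, had medians of 0.16, -0.76 and -0.20. In block 6, chr8:55696424-69834978, 92.1% of genes were called higher in 92.1, and in block 12, chr8:141391995-144097525, 74.4% were called higher in MP38. The blocks were laid out after the arm medians were seen. YWHAZ, a 14-3-3 adaptor at chr8:100916523-100953388, measured 2720.0, 2735 and 2590.1 CPM in 92.1 and 468, 463 and 469.6 CPM in MP38 (log2 ratio 2.52 ± 0.04 SE, adjusted p = 2.66e-10). PABPC1, the poly(A)-binding protein at chr8:100685816-100722809, measured 4206, 4379 and 4779 CPM in 92.1 and 2199.7, 2206 and 2337 CPM in MP38 (log2 ratio 0.99 ± 0.06 SE, adjusted p = 2.78e-07). RPL8, a ribosomal protein in the last block at chr8:144789765-144792587, measured 2619, 2637 and 2801 CPM in 92.1 and 2761, 2716 and 2733 CPM in MP38 and was not called (log2 ratio -0.03 ± 0.04 SE, adjusted p = 0.574), although it was called higher in MP38 on scaling by library totals (log2 ratio -0.23, adjusted p = 0.000858). On 8p, FDFT1, squalene synthase, measured 1012, 1004 and 824 CPM in 92.1 and 193, 192 and 189 CPM in MP38 (log2 ratio 2.31 ± 0.08 SE, adjusted p = 1.24e-08). ASAH1, acid ceramidase, measured 437, 427 and 536 CPM in 92.1 and 122, 123 and 126 CPM in MP38 (log2 ratio 1.92 ± 0.09 SE, adjusted p = 6.48e-08). CTSB, cathepsin B, also on 8p, went against its arm at 299, 298 and 316 CPM in 92.1 and 414, 408 and 381 CPM in MP38 (log2 ratio -0.40 ± 0.05 SE, adjusted p = 9.51e-05).

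Chromosome 3 lay lower in 92.1. On 3p the median was -0.47 over 408 genes, with quartiles at -1.30 and 0.15, and 58.3% of genes were called higher in MP38, against 39.2% of all autosomal genes. On 3q it was -0.21 over 411 genes. Single samples gave -0.43 to -0.39 for 3p and -0.22 to -0.16 for 3q. Along the chromosome, all 9 blocks that lie wholly on 3p were below 0, at -0.92 to -0.19, the lowest being chr3:50674927-52835729. On 3q the block of chr3:94047836-111846447 was at -0.67, the 6 blocks of chr3:120908072-184309050 lay between -0.20 and 0.12, and the last 2, from 184314495 to the end, were at -0.97 and -0.74. The 4 genes of 3p with the highest CPM encode ribosomal proteins. RPL14 measured 683, 722 and 759 CPM in 92.1 and 1555, 1463 and 1573 CPM in MP38 (log2 ratio -1.09 ± 0.05 SE, adjusted p = 1.26e-07), while RPSA, at 1609, 1594 and 1713 CPM in 92.1 and 1508, 1469 and 1579.6 CPM in MP38, was not called (log2 ratio 0.11 ± 0.05 SE, adjusted p = 0.0663). RPSA was called higher in 92.1 without sample 3 of that line (log2 ratio 0.10, adjusted p = 0.0126), without its sample 2 (adjusted p = 0.0474), without MP38 sample 3 (adjusted p = 0.0333) and with the replicate number as a block (adjusted p = 0.0374), and its sign changed with library totals (log2 ratio -0.10). On 3q, EIF4A2, an RNA helicase of translation initiation in the block second from the end, measured 393, 371 and 377 CPM in 92.1 and 600.3, 578 and 614 CPM in MP38 (log2 ratio -0.65 ± 0.05 SE, adjusted p = 1.69e-06).

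Chromosome 6 lay slightly higher in 92.1. On 6p the median was 0.37 over 424 genes and on 6q 0.28 over 321 genes, with single samples at 0.32 to 0.35 and 0.25 to 0.30. The 6q median was 0.17 on log2(FPKM + 1) and 0.19 among genes of at least 5 CPM. The quartiles of the arms overlapped widely, at -0.56 to 1.09 and -0.28 to 1.01. The highest block was chr6:10492223-21232404 at 1.05, and the block of chr6:31665227-32195523 within the major histocompatibility region was at -0.03. HSP90AB1, a chaperone on 6p, measured 5017, 5066 and 4165 CPM in 92.1 and 3177, 3090.2 and 3076 CPM in MP38 (log2 ratio 0.61 ± 0.07 SE, adjusted p = 4.65e-05). TUBB, a beta-tubulin on 6p, measured 1793, 1758 and 1361 CPM in 92.1 and 751, 757 and 749 CPM in MP38 (log2 ratio 1.12 ± 0.10 SE, adjusted p = 4.56e-06). On 6q, IGF2R, the receptor that clears IGF2, measured 454, 439.7 and 464 CPM in 92.1 and 372, 379 and 349.9 CPM in MP38 (log2 ratio 0.30 ± 0.05 SE, adjusted p = 0.000452). CD164, a sialomucin, measured 262, 259 and 299 CPM in 92.1 and 212, 218 and 209 CPM in MP38 (log2 ratio 0.36 ± 0.06 SE, adjusted p = 0.000661). Both of these calls on 6q were lost when library totals alone were used, at log2 ratios of 0.10 and 0.15.

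**Figure D5:**
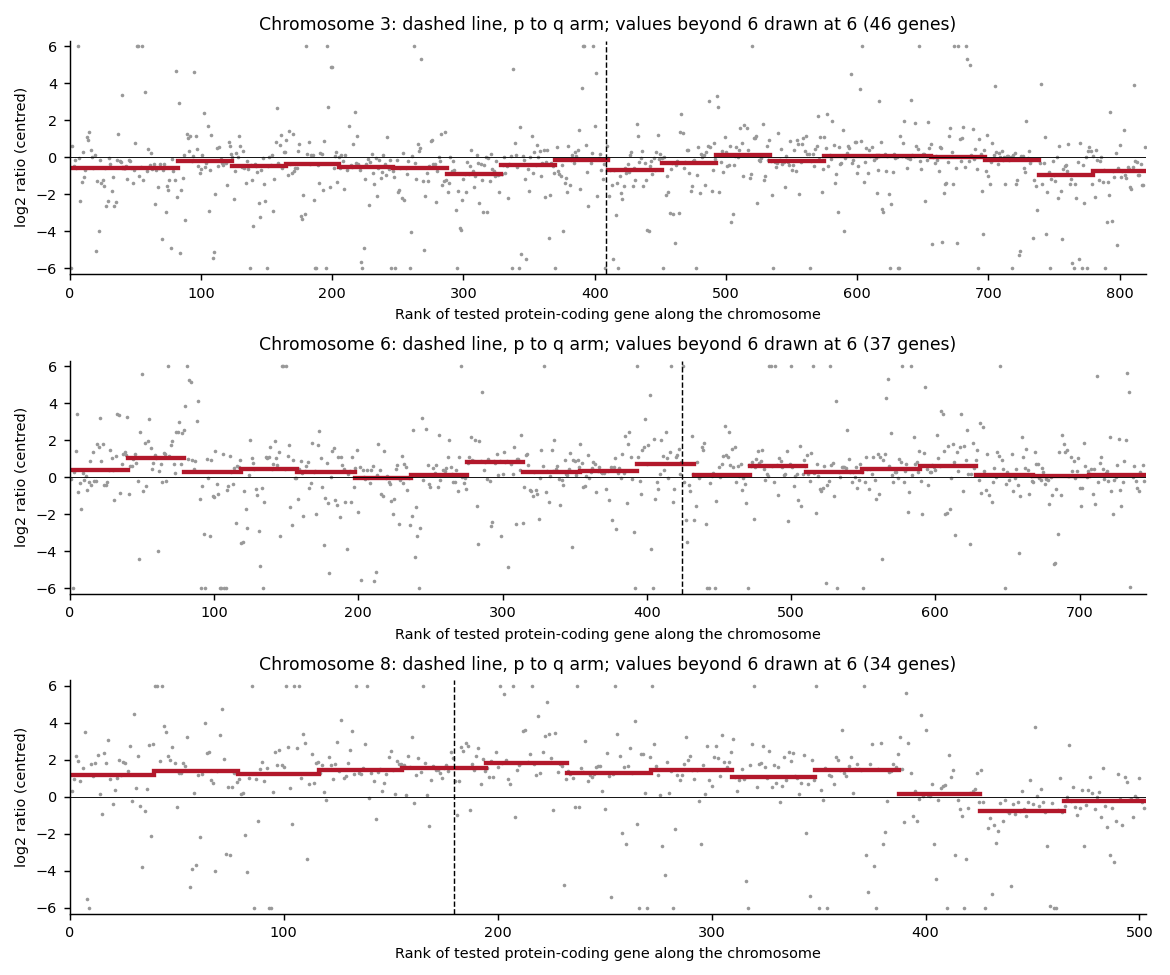
Log2 ratio of 92.1 over MP38 (centred on all autosomal protein-coding genes) of each tested protein-coding gene along chromosomes 3, 6 and 8 by rank, with the median of each block of 38 to 41 genes as a red bar and the border of the arms as a dashed line. Chromosome 8 stays at 1.10 or above up to its last 3 blocks, and chromosome 3 dips at both ends of its q arm.

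Other arms differed as much as those of chromosomes 3 and 6. The lowest were 11p at -0.96, 17p at -0.60 and 11q at -0.59, and after chromosome 8 the highest were 18p at 0.85, 4q at 0.76 and 13q at 0.68. On 11p, 67.2% of 299 genes were called higher in MP38, and on 4q 70.7% of 351 were called higher in 92.1. Medians lower than that of 3p were found on 3 arms and medians higher than that of 6p on 11 arms, while the 2 arms of chromosome 8 held the highest places of 39.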

How the data were processed

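Human uveal melanoma lines 92.1 and MP38 were profiled by poly(A) RNA-seq, and the 3 DMSO samples of each were used here. Raw gene counts and FPKM values (counts per gene length and library size) were made by the authors. Per the submitters' processing notes, the genome was GRCh38.p13 and the tools named are featureCounts 2.0.6 for counting, STAR 2.7.11a, an aligner, cutadapt 4.8, a trimmer, and the quality tools MultiQC 1.7 and FastQC 0.12.1; strand use in counting is not given in the sources used here. The 2 deposited count tables hold 44938 and 42342 features and were joined by identifier (38997 shared); a feature in 1 table alone was not tested.

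Counts were fitted with edgeR 4.0.16 in R 4.3.3. The steps were filterByExpr with a minimum of 10 counts, TMM, the quasi-likelihood test and Benjamini-Hochberg adjustment over all tested genes. The procedure was tried on simulated counts with few changed genes, the same spread for all genes and no outlying sample. It was not tried on simulated counts in which most genes differ. Line was the only term. The alternatives were DESeq2 1.42.0, limma 3.58.1 on log2(FPKM + 1) and log2(FPKM + 0.1), other scalings and filters, thinned counts, the union of the tables, all 12 samples in 1 fit, a replicate block and each sample left out. Chromosome arms were parted at the cytoband border. Levels of single samples per arm use log2(CPM + 0.5), so they differ somewhat from fitted medians.

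Members and gene lists were chosen with earlier results of these data known. Genes named are the 12 largest differences in each direction (at least 10 CPM, no overlap), the 10 highest on/off genes, up to 6 members of each list by smallest adjusted p, a preset set of drivers, lineage and cycle genes, and the 4 highest genes of each arm of chromosomes 3, 6 and 8; others are marked in the text. Y-chromosome genes and XIST were left out, and a few other genes, taken out of the lists as well, are not reported here.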

Additional observations from a re-analysis of the deposited data

How the results depend on the processing

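The counts of members called in the melanocyte, mitosis, replication, ATR checkpoint, recombination and interferon lists stayed within 1.5 times their value under every alternative run. Their medians did so too, except for recombination (0.75) and interferon (-1.94) on log2(FPKM + 1). Of all 29 lists, 20 had a median that moved by over 1.5 times or turned under at least 1 alternative. Of these, 5 turned. Class 1 markers and HOX turned by library size (-0.12 and -0.07), among genes of at least 5 CPM and on both FPKM scales. Class 2 markers turned among genes of at least 5 CPM (-1.77) and on both FPKM scales (-0.93 and -1.64). Receptor tyrosine kinases turned under most alternatives, at -0.18 by library size and -0.15 with DESeq2. YAP and TAZ targets turned without 92.1 sample 1 (0.0093) or sample 2 (0.0050). Library size gave 7553 genes higher in 92.1 and 10721 higher in MP38. Restricting the test to genes of at least 5 CPM gave 9950 genes called, 5013 higher in 92.1 and 4937 higher in MP38, since fewer genes were tested. On log2(FPKM + 1) and log2(FPKM + 0.1), 5893 and 5880 genes were called higher in 92.1, of 15909 tested. Leaving out each sample in turn gave 17641 to 19276 genes called, 8542 to 9356 higher in 92.1 and 9073 to 9920 higher in MP38. No filter gave 20535 and DESeq2 19307. With the replicate number as a replicate block 17911 genes were called; same-numbered samples did not deviate together (correlations -0.0035, -0.036 and -0.039, and 0 samples correlated best with their own number), so the numbers do not pair them.

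Genes on in 92.1 numbered 170 at a minimum of 1 CPM and 165 at a floor of 10 counts, and genes on in MP38 203 at 1 CPM. Arm medians kept their direction. With genes of at least 5 CPM they were -0.54 (3p), -0.26 (3q), 0.39 (6p), 0.19 (6q), 1.37 (8p) and 0.96 (8q). On log2(FPKM + 1) they were -0.43 (3p), 0.29 (6p), 0.17 (6q), 1.12 (8p) and 0.81 (8q), and on log2(FPKM + 0.1) -0.50 (3p), 0.19 (6q), 1.36 (8p) and 0.96 (8q). With all gene types they were -0.44 (3p), -0.32 (3q), 0.43 (6p), 0.38 (6q), 1.33 (8p) and 0.72 (8q). DESeq2 gave 0.34 (6p), 1.36 (8p) and 0.94 (8q), and no filter 0.35 (6q), 1.41 (8p) and 0.95 (8q). Leaving out each sample gave -0.49 to -0.47 (3p), -0.23 to -0.18 (3q), 0.35 to 0.39 (6p), 0.26 to 0.32 (6q), 1.43 to 1.49 (8p) and 0.98 to 1.02 (8q). The causes were not tested.

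Subtracting arm medians turned the list medians of class 2 markers (-0.060), YAP and TAZ targets (0.19) and oxidative phosphorylation (-0.013). Of 2724 values of 162 named genes under the alternatives, 2658 kept their direction and call, 11 lost the call, 32 gained it and 23 turned. Those that turned belong to genes not called. By library size, among genes of at least 5 CPM, on log2(FPKM + 1) and on log2(FPKM + 0.1) in that order, CCND1 was at -0.13, -0.085, -0.13 and -0.13 and GNA11 was at -0.046, -0.000401, -0.045 and -0.049. Likewise RPSA was at -0.097, -0.050, -0.096 and -0.097. MCM7 was at -0.024 by library size and -0.029 and -0.030 on the FPKM scales, PRC1 at -0.13 by library size and -0.011 with thinned counts, and RPL8 at 0.014 with no filter. Leaving out each sample gave -0.80 to 0.020 for ATF4, -0.032 to 0.27 for PRC1 and -0.034 to 0.0080 for RPL8. Depth limits the low counts: a gene without a count may still be present below the floor of 3 counts.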

Other observations

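Among the genes present in one line and without a count in the other, 4 picked after their values were seen were as follows. GAL, the neuropeptide galanin, measured 67.2, 71.3 and 46.8 CPM in 92.1 and was at least 1355-fold higher than in MP38, against a floor of 3 counts per sample. DPP10, a subunit that modifies potassium channels, measured 32.6, 33 and 33.2 CPM in 92.1, at least 722-fold higher. In the other direction, GRIA1, an AMPA glutamate receptor subunit, measured 44.1, 43 and 42.8 CPM in MP38 and was at least 1507-fold higher than in 92.1. SHANK2, a scaffold of synapses, measured 79.4, 79.7 and 82.2 CPM in MP38, at least 2799-fold higher. Each was even across the 3 samples of its line except GAL, which was lowest in sample 3.

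Replication-dependent histone genes differed against the direction of the other S phase genes. Of 13 tested, 2 were higher in 92.1, 10 were higher in MP38 and 1 was not called, with a median log2 ratio of -2.97, and their summed level was 15.8 to 18.4 CPM in 92.1 and 76.4 to 80.0 CPM in MP38. Most of these transcripts carry no poly(A) tail and come from near-identical copies, so their values from poly(A) libraries are uncertain.

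Mitochondrially encoded transcripts took 9.11% to 9.32% of counts in 92.1 and 6.82% to 7.26% in MP38, without overlap.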
